A study of Canis lupus familiaris with 15 samples.

Results

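Splicing factors and related RNA-binding proteins were taken from the deposited tables by gene symbol. The rule kept the SR protein (SRSF), HNRNP, SF3A, SF3B, SNRP, PRPF, numbered RBM, DDX, DHX, LSM and U2AF names and left out DDX58, DDX60 and DHX58. It found 99 genes among the 7698 genes listed in any of 3 comparisons, of which 75 were listed for D17, 4 for HMPOS and 65 for HMPOS against POS. All listed genes numbered 4412 for D17, 1189 for HMPOS and 5746 for HMPOS against POS. The dog RefSeq annotation holds 165 protein-coding symbols that match the same rule, of which 97 were listed in at least 1 comparison and 68 in none, and the other 2 listed genes carry another symbol there. The share of all annotated genes that was listed was not computed, so 97 of 165 cannot be called many or few.

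The study sequenced mRNA of cultured canine osteosarcoma lines, with 3 libraries in each of 5 groups. D17 and HMPOS are osteosarcoma lines, and HMPOS is a highly metastatic sub-line of POS. Extravasation-positive sub-lines of D17 and HMPOS, called extravasated here, were grown out in culture from tumor cell clusters that had left the vessels of zebrafish embryos. Their controls were parental D17 and parental HMPOS cells grown in culture without passage through a fish, so passage, isolation and regrowth cannot be told apart from extravasation in these groups. POS was sequenced as parental cells alone. Each comparison gives 1 expression value per group in FPKM, that is fragments normalised to transcript length and library size. The value pools the 3 libraries of the group, which leaves neither a spread between libraries nor a depth to report, and no test over libraries was run. A gene is listed only where the authors' own test marked it as significant, and a gene that is not listed may have changed little or may have been poorly measured. The tables call the groups meta and norm. Since the parental POS cells are a norm group, norm was taken to mean parental and meta to mean extravasated. The norm value of HMPOS was the same, within 2%, in both tables that hold it for all 908 genes listed in both, and the meta value lay that close for 0 of them, so both tables use the name for one group. This check does not reach D17 and does not show which cells the name stands for. The study's own account of up- and downregulated genes follows the opposite order of the extravasated and parental groups, and the sources used here do not settle which order is right. All directions between extravasated and parental cells below rest on the reading of the group names and would be reversed under the opposite one.

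Pre-mRNA splicing is carried out by the spliceosome, which is built from small nuclear ribonucleoproteins (snRNPs). Sm proteins, encoded by SNRP genes, and LSM proteins form the rings around the snRNAs, the SF3A and SF3B complexes belong to the U2 snRNP that recognises the branch point, and several PRPF proteins belong to the U4/U6.U5 tri-snRNP. SR proteins and HNRNP proteins bind the transcript and steer the choice of splice sites. DDX and DHX proteins are mostly RNA helicases, some of which drive the spliceosome while others act in ribosome assembly, mRNA export, translation or decay, and RBM names are given to many unrelated proteins that share an RNA recognition motif.

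The lines could be checked against osteoblast lineage markers only where these were listed. Of 9 such markers, 4 were listed for D17 and all 4 were higher in extravasated cells, with the collagen gene COL1A1 at 397.4 FPKM after extravasation and 224.4 FPKM in the parental line and SPP1, or osteopontin, at 25.2 and 3.71 FPKM. In HMPOS 5 were listed, of which COL1A1, SPARC, ALPL and BGLAP were higher after extravasation and IBSP was lower, at 0.427 and 2.05 FPKM. For HMPOS against POS 5 were listed, of which COL1A1, SPARC, SPP1 and BGLAP were lower in HMPOS and SP7 was higher, at 54.5 and 41.7 FPKM. BGLAP, or osteocalcin, was at 27.3 FPKM in HMPOS against 676.3 FPKM in POS. Of 8 markers of blood, endothelium and epithelium, EPCAM alone was listed and only for D17, at 1.72 FPKM after extravasation and 0.431 FPKM in the parental line. The part of these differences in the results below was not tested. The only splicing member listed in both tables that hold parental HMPOS cells was PRPF4B, whose value for these cells was 43.3 FPKM in one and 43.2 FPKM in the other.

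With the group names read in this way, most of the splicing and RNA-binding genes listed for D17 had a lower value in extravasated than in parental cells. Of the 75 members, 64 were lower and 11 higher in extravasated cells, so that 85.3% were lower, where 45.8% of all 4412 listed genes were lower. The differences were moderate, with a median log2 ratio of extravasated over parental cells of -0.52 and quartiles of -0.71 and -0.35. The median of all listed genes was 0.39, and relative to it 67 members were lower and 8 higher. This median is that of genes chosen by a test and is no neutral reference. The listed genes of each comparison hold no ratio near 0, and the smallest absolute log2 ratio of a member in D17 was 0.30.

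The members were more strongly expressed than the rest of the table. Of the 75 members, 71 reached 10 FPKM in at least 1 group, and of these 62 were lower and 9 higher in extravasated cells. Among all 2967 listed genes at that level 52.7% were lower, against 87.3% of the members. A difference of more than 1.5 times was seen for 26 members that were lower, or 34.7%, against 24.9% of all listed genes. Only 4 members were lower by more than 2 times, where 8.50% of all listed genes were. Higher by more than 1.5 times was 1 member, or 1.33%, against 36.9% of all listed genes. Summed over the 75 members, the level was 13144 FPKM in parental and 9993 FPKM in extravasated cells.

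**Figure D1:**
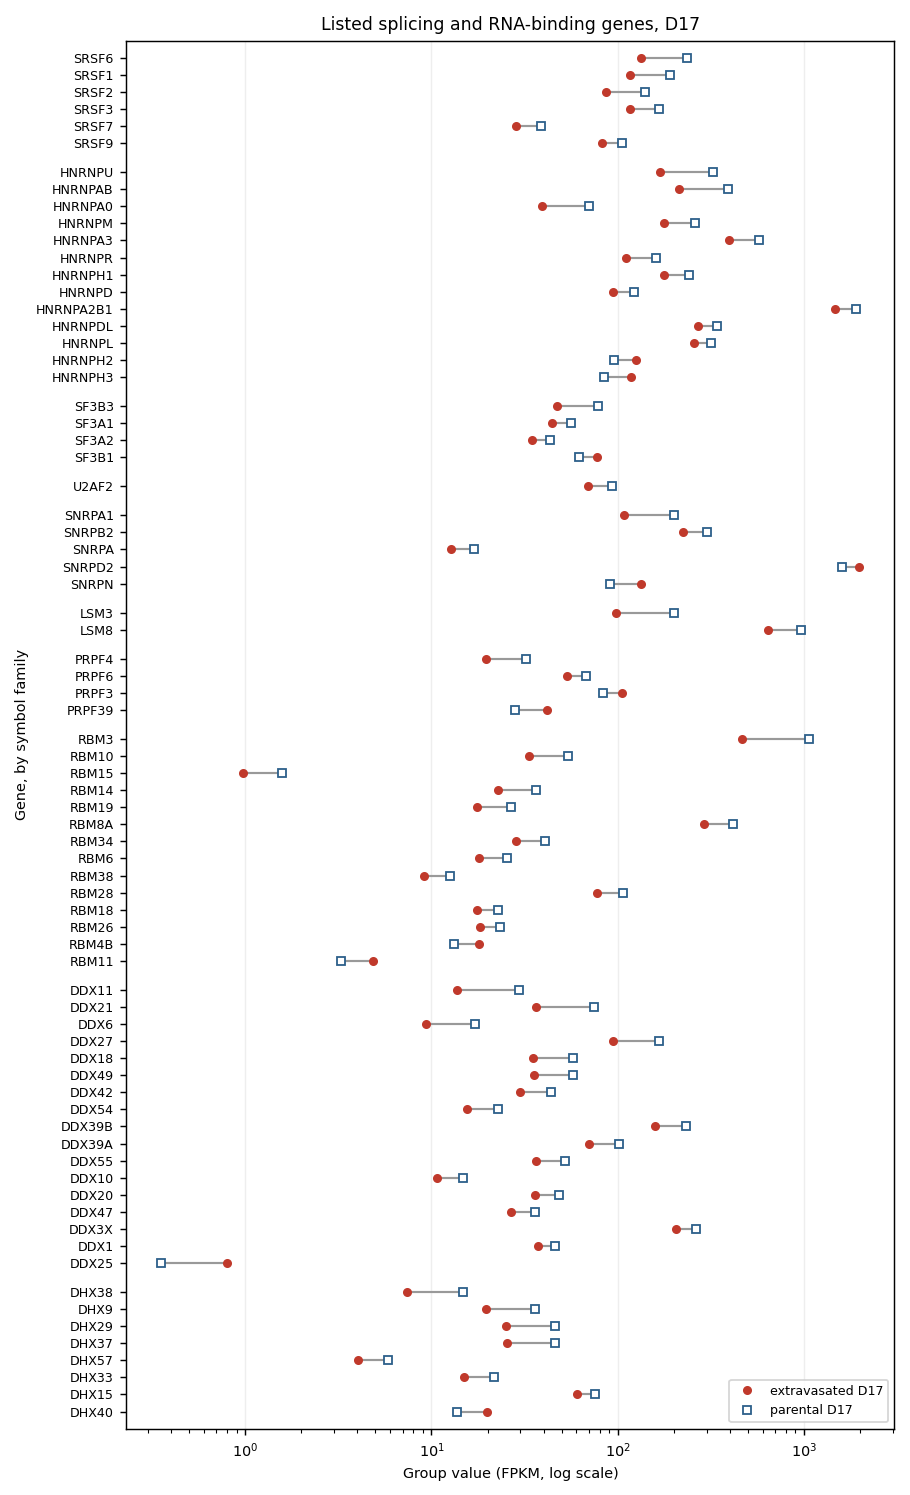
Levels of 74 of the 75 listed members in extravasated (filled circles) and parental (open squares) D17 cells, in FPKM on a log axis, with genes grouped by symbol family and a line joining the 2 group values of a gene. Each point pools 3 libraries and has no error bar. For 63 of the 74 genes the circle lies to the left of the square, and the line of RBM3, from 466 to 1061 FPKM, is the longest.

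SR proteins bind exonic enhancers and recruit the spliceosome to nearby splice sites. All 6 SRSF genes listed for D17 were lower in extravasated cells, at a median log2 ratio of -0.61. For this and the families that follow, 45.8% of all listed genes were lower, or 52.7% at 10 FPKM or more. SRSF6 was at 133.1 FPKM after extravasation and 236.7 FPKM in the parental line, a log2 ratio of -0.83. SRSF1, the founding member of the family, was at 116.4 and 189.9 FPKM, a log2 ratio of -0.71. SRSF2 was at 86.2 and 140.0 FPKM, a log2 ratio of -0.70. These 3 were lower by more than 1.5 times, while SRSF3, SRSF7 and SRSF9 had log2 ratios from -0.52 to -0.36. The other 5 RefSeq symbols of the family were not listed.

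HNRNP proteins coat nascent transcripts and often oppose SR proteins at splice sites. Of 13 listed HNRNP genes, 11 were lower and 2 higher in extravasated D17 cells. HNRNPU, a nuclear scaffold protein that binds both RNA and chromatin, was at 169.0 FPKM after extravasation and 325.3 FPKM in the parental line, a log2 ratio of -0.94. HNRNPAB was at 214.6 and 391.6 FPKM, a log2 ratio of -0.87. HNRNPA0 was at 39.0 and 70.1 FPKM, a log2 ratio of -0.85. These were the 3 HNRNP genes that were lower by more than 1.5 times, and among the other lower members HNRNPM and HNRNPA3 each had a log2 ratio of -0.55, with HNRNPA3 at 394.4 and 575.5 FPKM. HNRNPA2B1 had the highest level of the family and was at 1474 FPKM after extravasation and 1904 FPKM in the parental line, a log2 ratio of -0.37. The 2 higher genes both belong to the HNRNPH group, which binds runs of G. HNRNPH2 was at 125.6 FPKM after extravasation and 95.2 FPKM in the parental line, and HNRNPH3 at 118.0 and 84.1 FPKM, with log2 ratios of 0.40 and 0.49. HNRNPH1, of the same group, went the other way, at 176.2 and 242.7 FPKM.

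Among components that mark the branch point and the 3′ splice site, 4 of 5 listed genes were lower. With 5 genes this share carries little weight. SF3B3 was at 47.3 FPKM after extravasation and 78.4 FPKM in the parental line, a log2 ratio of -0.73. SF3A1, SF3A2 and U2AF2, the large subunit of the factor that binds the polypyrimidine tract, had log2 ratios of -0.34, -0.32 and -0.44. SF3B1, which clamps the branch point and sits in the same complex as SF3B3, was higher, at 77.8 and 61.8 FPKM, a log2 ratio of 0.33.

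The snRNP proteins were divided. SNRPA1 and SNRPB2, which form a pair on the U2 snRNA, were lower, with SNRPA1 at 107.9 FPKM after extravasation and 200.6 FPKM in the parental line and SNRPB2 at 222.9 and 300.8 FPKM. SNRPA, a U1 protein, was at 12.8 and 16.8 FPKM. SNRPD2, a protein of the Sm ring, had the highest level of all members in D17 and was higher in extravasated cells, at 1988 FPKM against 1606 FPKM, a log2 ratio of 0.31. SNRPN, which encodes an Sm protein closely related to that of SNRPB, was also higher, at 133.2 and 90.5 FPKM, a log2 ratio of 0.56. Reads of near-identical copies may have been divided between such genes by the authors' counting, which was not tested.

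LSM3, part of the ring on U6 snRNA and of the ring that acts in mRNA decay, was at 98.4 FPKM after extravasation and 199.4 FPKM in the parental line, a log2 ratio of -1.02. LSM8, found in the nuclear U6 ring, was at 640.6 and 967.4 FPKM, a log2 ratio of -0.59. Both are listed at very short loci, LSM3 on chromosome 14 from 11481429 to 11481735 and LSM8 on chromosome 18 from 55715092 to 55715389, so that reads shared with other copies of these genes cannot be told apart from their own. Without the members at loci under 1.5 kb, the median log2 ratio in D17 was -0.50.

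Of the PRPF genes, PRPF4 was at 19.7 FPKM after extravasation and 32.4 FPKM in the parental line, a log2 ratio of -0.72, and PRPF6 had a log2 ratio of -0.34. PRPF4 binds PRPF3 in the U4/U6 snRNP, yet PRPF3 was higher, at 105.1 and 83.5 FPKM, a log2 ratio of 0.33. PRPF39, a protein associated with the U1 snRNP, was higher too, at 41.6 and 28.1 FPKM, a log2 ratio of 0.57.

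Of 14 listed RBM genes, 12 were lower in extravasated D17 cells. RBM3, a small RNA-binding protein known for its induction in mild cold, showed the largest decrease of all 75 members, at 465.5 FPKM after extravasation and 1061 FPKM in the parental line, or 43.9% of the parental level, a log2 ratio of -1.19. It is listed on the X chromosome from 41806838 to 41808876 under ENSCAFG00000015485. RBM10, a regulator of exon skipping, was at 33.2 and 54.1 FPKM, a log2 ratio of -0.70. RBM14, a paraspeckle protein, was at 22.8 and 36.4 FPKM, a log2 ratio of -0.68. RBM8A, the Y14 protein of the exon junction complex that is laid down on spliced mRNA, was at 291.6 and 418.4 FPKM, a log2 ratio of -0.52. RBM4B and RBM11 were the 2 higher RBM genes, at 18.1 against 13.2 FPKM and at 4.87 against 3.27 FPKM. RBM15, of the complex that methylates adenosines in mRNA, was at a low level, 0.977 FPKM after extravasation and 1.58 FPKM in the parental line.

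The helicases were lower almost throughout, 16 of 17 DDX genes and 7 of 8 DHX genes. DDX11, a DNA helicase of sister chromatid cohesion and no splicing factor, was at 13.7 FPKM after extravasation and 29.4 FPKM in the parental line, a log2 ratio of -1.10. DDX21, a nucleolar helicase that couples rRNA transcription to processing, was at 36.3 and 74.2 FPKM, a log2 ratio of -1.03. With RBM3 and LSM3 they were the 4 members that were lower by more than 2 times. DHX38, the helicase of the second catalytic step of splicing, was at 7.42 and 14.8 FPKM, a log2 ratio of -0.99. DHX9, a nuclear helicase with several RNA substrates, was at 19.7 and 36.0 FPKM, a log2 ratio of -0.87. DDX6, which acts in mRNA decay and storage, was at 9.35 and 17.1 FPKM, a log2 ratio of -0.87.

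Divided by role, 6 of the 14 helicases of a list of spliceosome, export and associated helicases were listed for D17, all 6 lower, with a median log2 ratio of -0.55. In addition to DHX38 and DHX9 they were DDX39A, DDX39B, DDX42 and DHX15, and DDX39B, which loads export factors onto mRNA, was at 158.8 FPKM after extravasation and 231.7 FPKM in the parental line. Of 19 nucleolar and ribosome assembly genes among the DDX, DHX and RBM names, 13 were listed and all 13 were lower, again with a median log2 ratio of -0.55. DHX37, of small subunit assembly, was at 25.3 FPKM after extravasation and 45.9 FPKM in the parental line, a log2 ratio of -0.86. DDX27, which acts in large subunit assembly, was at 94.8 and 167.3 FPKM, and DDX18 at 35.2 and 57.9 FPKM. Of 12 helicases of translation, decay, snRNP assembly, mitochondria and other roles, 6 were listed and all 6 were lower. Among them were DDX3X at 205.7 and 261.9 FPKM and DHX57 at 4.02 and 5.87 FPKM. No listed gene of these 3 role lists was higher, where 54.2% of all listed genes were, or 47.3% at 10 FPKM or more. The role lists were chosen with earlier results of these data known and do not hold the 2 higher helicases. Their shared direction is therefore no independent support. The 2 higher helicases were DHX40, at 19.7 and 13.7 FPKM, and DDX25, a helicase of male germ cells, at 0.799 and 0.354 FPKM, which was below 1 FPKM in both groups and was the 1 member higher by more than 1.5 times.

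Genes of the same pathway with other names mostly had the same direction in D17. Their lists were chosen with earlier results of these data known, so they are no independent support. Of 62 spliceosome and snRNP assembly genes outside the symbol rule, 19 were listed and all 19 were lower, with a median log2 ratio of -0.50. The share for this and the lists that follow is 45.8% lower among all listed genes, or 52.7% at 10 FPKM or more. EFTUD2, the GTPase of the U5 snRNP, was at 26.2 FPKM after extravasation and 55.1 FPKM in the parental line, a log2 ratio of -1.08. PRMT5, the methyltransferase that modifies Sm proteins before snRNP assembly, was at 56.5 and 110.7 FPKM, a log2 ratio of -0.97. PPIH, a cyclophilin of the tri-snRNP, was at 30.8 and 53.4 FPKM, a log2 ratio of -0.79.

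Of 58 other splicing regulators, 32 were listed for D17, 28 lower and 4 higher. TAF15, an RNA-binding protein related to EWSR1, was at 25.5 FPKM after extravasation and 70.2 FPKM in the parental line, a log2 ratio of -1.46. KHDRBS3 was at 0.809 and 1.67 FPKM and ILF2 at 175.5 and 323.0 FPKM, log2 ratios of -1.05 and -0.88. The higher genes were RBMS2, at 5.41 and 1.87 FPKM, RBMS3, at 2.95 and 1.36 FPKM, ESRP1, the epithelial splicing regulator, at 5.17 and 3.69 FPKM, and RBMS1. The 3 RBMS genes encode single-stranded nucleic acid binding proteins, and 12 of the 14 numbered RBM genes were lower.

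Of 24 genes of the exon junction complex, cap binding, export and nonsense-mediated decay, a list that includes RBM8A, 9 were listed and all 9 were lower, led by NXF1, the main mRNA export receptor, at 27.2 FPKM after extravasation and 42.6 FPKM in the parental line. UPF2 and THOC1 followed, with log2 ratios of -0.63 and -0.62. The list of CLK, DYRK and SRPK kinases and of import receptors for RNA-binding proteins was divided. Of its 12 genes, 6 were listed, and the 3 import receptors TNPO1, TNPO2 and TNPO3 were lower, with log2 ratios of -0.54, -0.41 and -0.50. The 3 kinases were higher. CLK1 was at 24.1 FPKM after extravasation and 14.8 FPKM in the parental line, CLK4 at 6.88 and 4.81 FPKM and DYRK1B at 1.79 and 0.951 FPKM. CLK1 and CLK4 phosphorylate SR proteins in the nucleus.

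**Figure D2:**
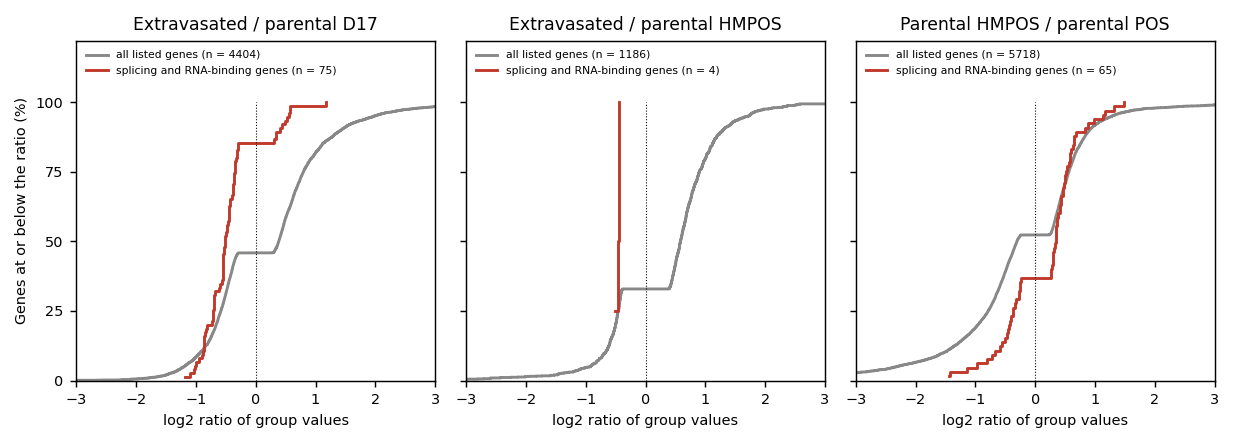
Cumulative share of genes (vertical axis, percent) by log2 ratio of the 2 group values (horizontal axis) for members (red) and all listed genes with a value in both groups (grey) in each comparison. Genes with more extreme ratios than the axes show fall outside the panels. The red line reaches 85.3% below 0 in D17, all 4 members lie below 0 in HMPOS, and 36.9% lie below 0 for HMPOS over POS, and the flat stretch around 0 is where no gene is listed.

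In HMPOS, 4 members were listed and all 4 had lower values after extravasation, where 33.0% of all 1189 listed genes were lower. All 4 reached 10 FPKM in a group, and among all 682 listed genes at that level 43.1% were lower. With 4 genes this share carries little weight. HNRNPDL was at 194.9 FPKM after extravasation and 277.6 FPKM in the parental line, a log2 ratio of -0.51. HNRNPD, known as AUF1 and a binder of AU-rich elements, was at 90.1 and 124.7 FPKM, a log2 ratio of -0.47. PRPF4B, a kinase that phosphorylates tri-snRNP proteins, was at 31.8 and 43.3 FPKM, a log2 ratio of -0.44. DHX29, a helicase of translation initiation, was at 24.9 and 33.7 FPKM, a log2 ratio of -0.44. None of the 4 differed by more than 1.5 times, where 14.6% of all listed genes were lower by that much, and no SRSF, SF3, SNRP, LSM, U2AF, RBM or DDX member was listed.

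HNRNPD, HNRNPDL and DHX29 were listed in both lines, which is 3 of the 4 HMPOS members and 3 of the 75 D17 members. All 3 were lower in the extravasated cells of both. In D17, HNRNPD was at 94.1 FPKM after extravasation and 121.9 FPKM in the parental line and HNRNPDL at 268.8 and 341.4 FPKM, log2 ratios of -0.37 and -0.35. DHX29 was at 25.3 and 46.2 FPKM in D17, a log2 ratio of -0.87. HNRNPD and HNRNPDL are closely related genes that lie next to each other on chromosome 32, with 61.9 kb between their listed loci. Of all 1189 genes listed for HMPOS, 613 were listed in both lines with a value in each group. Of these 613 genes, 25.0% were lower in both. The difference between the lines was not tested.

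Of the other lists, 3 splicing regulators were listed in HMPOS and none of the other pathway genes. CCAR1 was lower, at 53.8 FPKM after extravasation and 73.2 FPKM in the parental line. KHDRBS3 was higher, at 17.4 and 12.3 FPKM, opposite to its direction in D17. CIRBP, a cold-inducible protein related to RBM3, was higher as well, at 67.5 and 45.3 FPKM, a log2 ratio of 0.57. CIRBP was not listed for D17, and RBM3 was not listed for HMPOS.

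Parental HMPOS and parental POS cells differed in 65 members, of which 41 were higher and 24 lower in HMPOS. That is 63.1% higher, where 47.7% of all 5746 listed genes were higher. Among the 60 members that reached 10 FPKM in a group, 37 were higher, or 61.7%, and among all 4027 listed genes at that level 53.4% were, so the share of the members was nearer to the background here than in D17. The median log2 ratio of HMPOS over POS was 0.34 for the members and -0.31 for all listed genes, and relative to the latter 46 members were higher and 19 lower. A difference of more than 1.5 times was seen for 12 members that were higher, or 18.5%, against 23.6% of all listed genes. It was seen for 8 members that were lower, or 12.3%, against 34.4% of all listed genes.

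**Figure D3:**
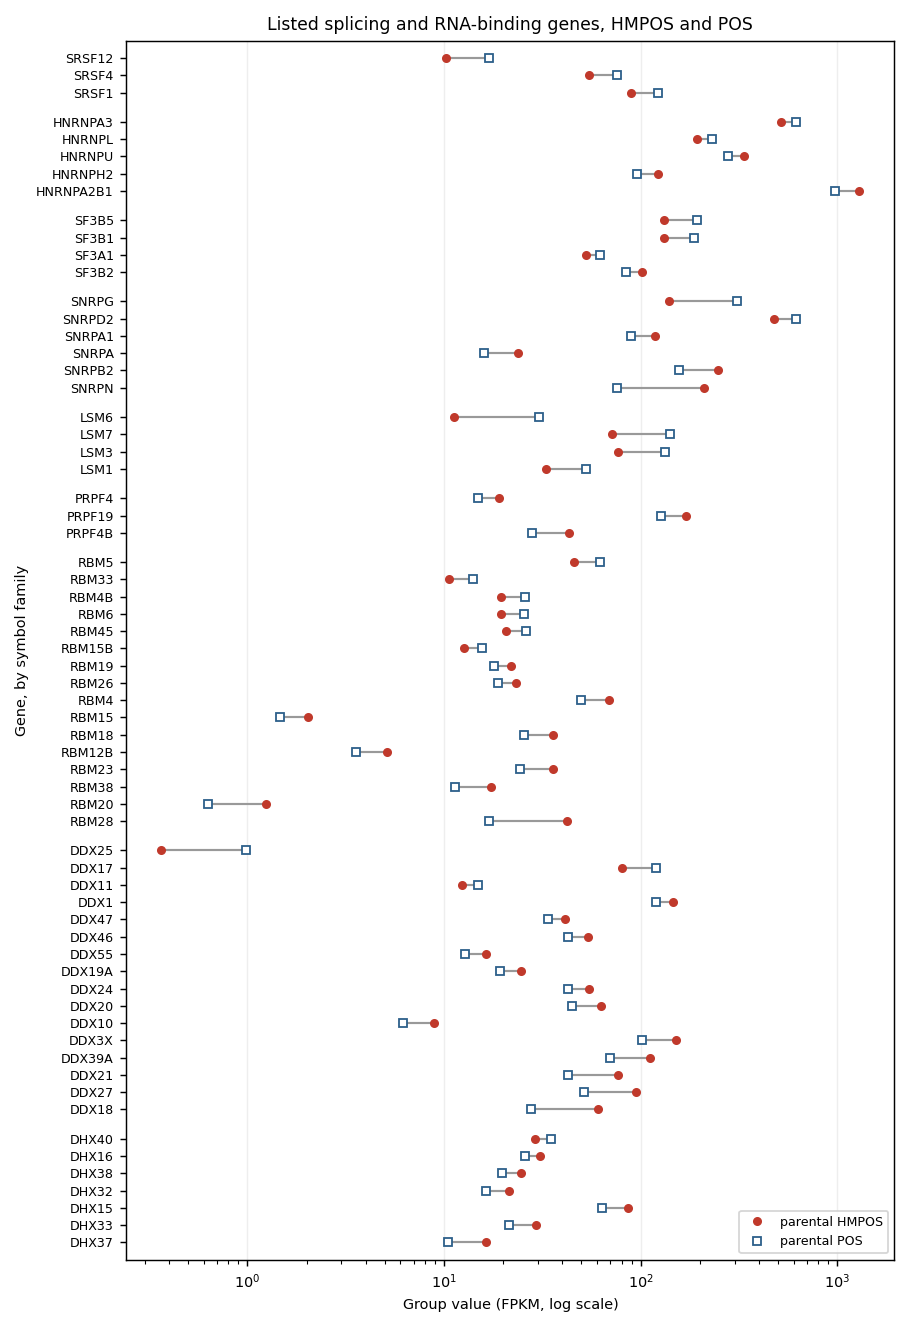
Levels of 64 of the 65 listed members in parental HMPOS (filled circles) and parental POS (open squares) cells, in FPKM on a log axis, by symbol family. Each point pools 3 libraries and has no error bar. The circles of the 3 SRSF and 4 LSM genes lie to the left of the squares, and those of the 3 PRPF genes drawn to the right.

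Directions differed between the families. Of all genes listed in this comparison, 52.3% were lower and 47.7% higher in HMPOS. At 10 FPKM or more, 46.6% were lower and 53.4% higher. With 3 or 4 listed genes in a family, a shared direction carries little weight. The 4 listed LSM genes were all lower in HMPOS, with a median log2 ratio of -0.89. LSM6 was at 11.2 FPKM in HMPOS against 30.4 FPKM in POS, a log2 ratio of -1.44. LSM7 was at 71.3 and 140.9 FPKM and LSM3 at 76.4 and 133.0 FPKM, log2 ratios of -0.98 and -0.80. The limit given above for the short locus of LSM3 applies here too. LSM6, LSM7 and LSM3 belong to both the nuclear and the cytoplasmic ring, while LSM1, at 33.0 and 52.6 FPKM, belongs to the cytoplasmic ring of mRNA decay alone.

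The 3 listed SRSF genes were lower in HMPOS as well. SRSF12 was at 10.3 FPKM in HMPOS against 16.98 FPKM in POS, SRSF4 at 54.3 and 75.7 FPKM and SRSF1 at 89.3 and 122.5 FPKM, with log2 ratios of -0.73, -0.48 and -0.46. Of the SF3 genes, SF3B5, SF3B1 and SF3A1 were lower, and SF3B1 was at 131.7 and 186.3 FPKM, a log2 ratio of -0.50. SF3B5 is listed at a locus of 258 bases, so the limit given for LSM3 applies to it. SF3B2 was higher, at 101.9 and 84.5 FPKM.

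All 4 listed PRPF genes were higher in HMPOS. PRPF4B was at 43.2 FPKM in HMPOS against 28.0 FPKM in POS, a log2 ratio of 0.63, and PRPF19, a ubiquitin ligase of the active spliceosome, was at 169.8 and 126.5 FPKM. None of the 5 listed HNRNP genes differed by more than 1.5 times. HNRNPA2B1 had the highest level of all members in this comparison, at 1296 and 975.9 FPKM, a log2 ratio of 0.41. HNRNPA3 was at 516.2 and 616.0 FPKM, HNRNPU at 333.9 and 277.2 FPKM and HNRNPL at 194.2 and 231.8 FPKM.

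The snRNP genes held both the largest increase among the members and, in SNRPG, a decrease of more than 2 times. SNRPN was at 210.7 FPKM in HMPOS against 75.6 FPKM in POS, a log2 ratio of 1.48. SNRPG, a protein of the same Sm ring, was at 140.0 and 308.2 FPKM, a log2 ratio of -1.14. SNRPD2 was at 474.6 and 614.5 FPKM, a log2 ratio of -0.37. SNRPB2, SNRPA and SNRPA1, which belong to the U1 or U2 snRNP alone, were higher, with log2 ratios of 0.65, 0.57 and 0.41. Of the 3 listed proteins of the Sm ring, SNRPG and SNRPD2 were thus lower in HMPOS and SNRPN was higher.

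Of the helicases, 13 of 16 DDX and 6 of 7 DHX genes were higher in HMPOS. Of all listed genes 47.7% were higher, or 53.4% at 10 FPKM or more. DDX18 was at 60.8 FPKM in HMPOS against 27.7 FPKM in POS, a log2 ratio of 1.13. DDX27 was at 94.8 and 51.5 FPKM and DDX21 at 76.5 and 42.9 FPKM, log2 ratios of 0.88 and 0.84. DDX39A was at 111.6 and 69.9 FPKM, a log2 ratio of 0.67, and DHX37 at 16.4 and 10.5 FPKM, a log2 ratio of 0.65. Of the spliceosome helicases 5 of 6 listed were higher, among them DHX15 at 86.0 and 63.8 FPKM and DDX46, which prepares the U2 snRNP for the branch point, at 54.1 and 42.7 FPKM. All 4 listed helicases of the list of translation, decay and other roles were higher, DDX3X at 151.7 and 101.8 FPKM, DDX20 at 62.8 and 44.7 FPKM, DDX19A and DDX1. The lower DDX genes were DDX17, a cofactor of splicing and transcription at 80.0 and 120.2 FPKM, DDX11, and DDX25, at 0.365 and 0.987 FPKM.

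All 11 listed nucleolar and ribosome assembly genes were higher in HMPOS, with a median log2 ratio of 0.52. The share of all listed genes that were higher was 47.7%, or 53.4% at 10 FPKM or more. This and the other role lists were chosen with earlier results of these data known, so they are no independent support. RBM28, a nucleolar protein of large subunit assembly, was at 42.1 FPKM in HMPOS against 16.9 FPKM in POS, a log2 ratio of 1.32, the second largest increase of the members. Among the 16 listed RBM genes 10 were higher. RBM20, known as a splicing regulator of titin in muscle, was at 1.24 and 0.629 FPKM, and RBM38, which stabilises certain mRNAs, at 17.3 and 11.4 FPKM. The lower RBM genes included the neighbours RBM5 and RBM6 on chromosome 20, whose listed loci lie 23 bases apart, at 45.9 against 61.9 FPKM and at 19.6 against 25.5 FPKM. RBM4B was lower, at 19.6 and 25.9 FPKM, and RBM4, its close relative 24.3 kb away on chromosome 18, was higher, at 68.8 and 49.9 FPKM.

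Without the DDX, DHX and RBM names, the median log2 ratio of the members for HMPOS over POS was -0.25, near the -0.31 of all listed genes. Of these other members 12 were higher and 14 lower in HMPOS, so that 46.2% were higher, near the 47.7% of all listed genes. No listed ratio lies near 0, and the smallest absolute log2 ratio of a member in this comparison was 0.24. With such even counts, the sign of the median of -0.25 rests on few genes. In D17 the median without these names was -0.44.

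**Figure D4:**
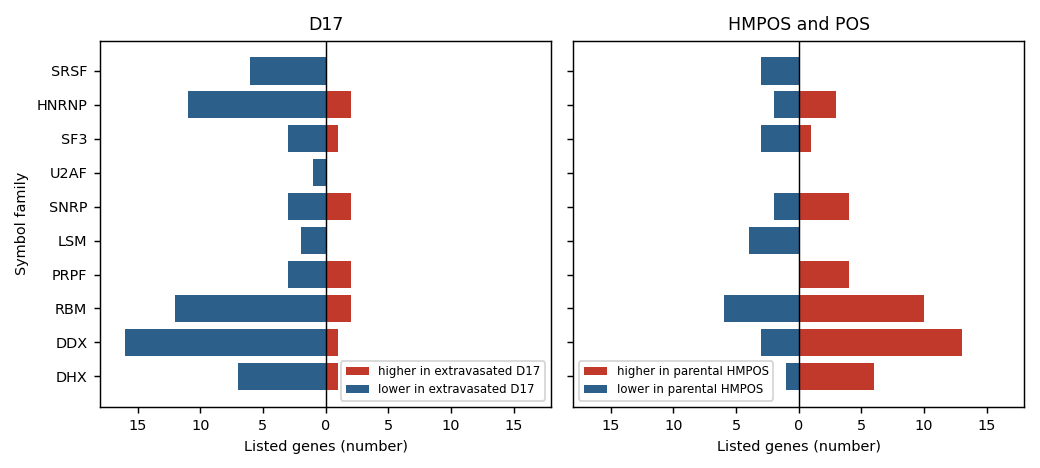
Number of listed members that were higher (red, to the right) and lower (blue, to the left) in extravasated D17 cells and in parental HMPOS cells against parental POS cells, by symbol family. Blue bars are the longer ones in every family of the D17 panel, while in the HMPOS and POS panel SRSF, SF3 and LSM extend further to the left and HNRNP, SNRP, PRPF, RBM, DDX and DHX further to the right.

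In the wider pathway, 17 of 24 listed spliceosome genes outside the symbol rule were higher in HMPOS. For this and the other lists, the share of all listed genes that were higher is 47.7%, or 53.4% at 10 FPKM or more. PRMT5 was at 124.8 FPKM in HMPOS against 61.4 FPKM in POS, a log2 ratio of 1.02, and PPIH and GEMIN4, of the complex that loads Sm proteins, had log2 ratios of 0.70 each. ZMAT5, SNRNP70 and XAB2 were the lowest, with log2 ratios of -0.95, -0.46 and -0.42. Of the other splicing regulators 16 of 24 were higher, led by NOVA1 at 7.38 and 3.51 FPKM, ILF2 at 476.4 and 277.9 FPKM and FUBP1 at 91.3 and 57.6 FPKM, and the largest decreases were those of RBMS3, which was below 1 FPKM in both groups at 0.134 and 0.666 FPKM, KHDRBS3 at 12.3 and 29.9 FPKM, MBNL3 at 2.03 and 4.14 FPKM and RBMS2 at 7.71 and 14.4 FPKM. Of the exon junction, cap and export genes 5 of 8 were higher, led by THOC6, THOC1 and NCBP2, with log2 ratios of 0.81, 0.58 and 0.35, and THOC5, THOC7 and NCBP1 were lower, with log2 ratios of -0.37, -0.27 and -0.24. The kinases CLK1, at 26.4 and 48.3 FPKM, CLK4, at 4.07 and 7.26 FPKM, and DYRK1B, at 3.31 and 7.14 FPKM, were lower. DYRK1A, at 31.9 and 16.98 FPKM, was higher, and so were TNPO3 and TNPO1, with log2 ratios of 0.73 and 0.58.

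The D17 comparison and the comparison of HMPOS with POS share no library. In both, 41 members were listed, which is 54.7% of the D17 members and 63.1% of the HMPOS and POS members. Of all genes, 2616 were listed in both with a value in each group, out of 4412 for D17 and 5746 for HMPOS against POS. Of the 41 members, 27 were lower in extravasated D17 cells and higher in HMPOS than in POS, or 65.9%. That combination was seen for 35.5% of all 2616 genes listed in both. A further 7 were lower in both, 5 were higher in extravasated D17 and lower in HMPOS, and 2, SNRPN and HNRNPH2, were higher in both. Among all genes listed in both comparisons, the combination of higher in D17 and lower in HMPOS was the most frequent, at 42.4%, and opposite directions together thus prevailed among all genes as they did among the members. The members lower in D17 split into 27 higher and 7 lower in HMPOS, much like the 928 and 252 of all genes. The excess of the first combination thus restates that most members were lower in D17.

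The 10 nucleolar and ribosome assembly genes listed in both comparisons all had the first combination, among them DDX21, DDX18, DDX27, DHX37 and RBM28. This follows from the counts above, where all 13 listed for D17 were lower and all 11 listed for HMPOS against POS were higher. The 7 members lower in both were DDX11, LSM3, SRSF1, HNRNPA3, HNRNPL, RBM6 and SF3A1. The 5 with the reverse combination were DDX25, DHX40, RBM4B, SF3B1 and SNRPD2. HNRNPD, HNRNPDL and DHX29, which were lower in the extravasated cells of both lines, were not listed for HMPOS against POS, and no member was listed in all 3 comparisons. PRPF4B, listed in both comparisons that share parental HMPOS cells, had the lower value in extravasated cells in the first comparison and the higher value in HMPOS in the second.

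**Figure D5:**
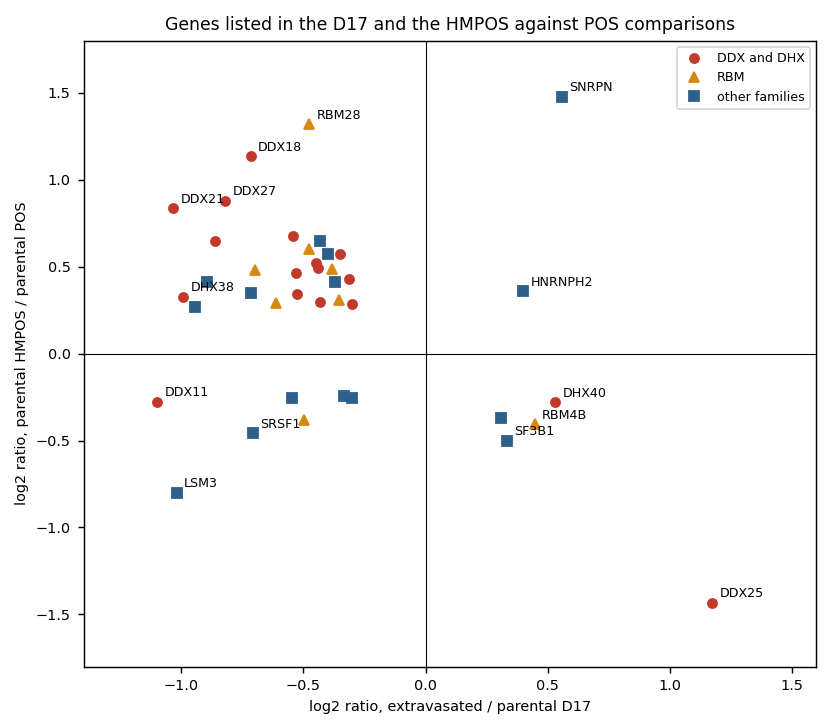
Log2 ratios of 40 of the 41 members listed both for extravasated over parental D17 cells (horizontal axis) and for parental HMPOS over parental POS cells (vertical axis), with symbols by family. The upper left field holds 26 of the 40 genes drawn, including DDX21, DDX18, DDX27 and RBM28, and the upper right holds SNRPN and HNRNPH2 alone.

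The members were spread over the genome and were not a cluster of neighbours. The largest number on a chromosome was 8 of 99, on chromosome 20, and 7 pairs of neighbouring members lay within 200 kb of each other. The listed loci were shorter than those of other genes, with a median span of 16.8 kb for members and 28.9 kb for all listed genes in D17, and of 15.6 and 30.2 kb for HMPOS against POS. Lower and higher members of D17 had median spans of 17.1 and 15.6 kb and median levels of 68.8 and 77.8 FPKM in the group with the higher value.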

How the data were processed

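RNA was sequenced from 15 libraries, 3 in each of 5 groups, and groups were taken from the sample titles. The authors deposited, per comparison, FPKM values that pool the 3 libraries of a group, in tables with the columns of Cuffdiff. The submitters' processing notes list Trimmomatic 0.38, TopHat2, Cufflinks, Cuffdiff and the build CanFam3.1, whereas the article's methods describe STAR, voom and limma. The deposited tables hold only genes marked as significant. Their columns of log2 fold change, test statistic, p-value and q-value are the authors' own comparison and were not used. Depth per library is unknown, so no interval is given. The number of unused columns of single samples was 0.

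Log2 ratios were computed from the 2 group values with no pseudocount, and members were counted by direction beside all listed genes of the table. No test was run, since each group has 1 value. Members, lists and roles were chosen with earlier results of these data known. The named genes were, per table, the 10 largest increases and decreases of members at 1 FPKM or more, the 5 highest levels, members listed in both lines, and, at 1 FPKM or more, the 3 largest changes per direction of each other list. Others were named after their values were seen. Some genes that the rule selects are not reported here by name, though they stay in the counts. Symbols were matched to RefSeq for names alone (assembly UU_Cfam_GSD_1.0, which is not the build of the tables). No sequence is printed, since no sequence table was used here. Counting was tested on simulated data. Python 3.11.15, pandas 2.3.3, numpy 2.4.6 and matplotlib 3.10.9 were used.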

Additional observations from a re-analysis of the deposited data

How the results depend on the processing

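The fold change needed to count a member moved the counts most. At a fold above 1.5, 26 members were lower and 1 higher in D17, 0 were lower in HMPOS, 12 were higher and 8 lower for HMPOS against POS, and 0 were lower in both lines. At a fold above 2, D17 had 4 lower members and 1 higher, HMPOS had 0, and 4 were higher and 3 lower for HMPOS against POS. A floor of 1 FPKM, a floor of 10 FPKM chosen after seeing the data, 1 row per symbol and centring on the median of all listed genes left each count by direction within 1.5 times of its value. The median log2 ratio of members was -0.48 for D17, -0.45 for HMPOS and 0.31 for HMPOS against POS with a pseudocount of 1 FPKM, and -0.91, -1.04 and 0.65 after centring. Without the DDX, DHX and RBM names it was -0.44 in D17 and -0.47 in HMPOS, and for HMPOS against POS it turned to -0.25, near the -0.31 of all listed genes. With 12 of these members higher and 14 lower and no listed ratio near 0, the sign of this last median rests on few genes. Without loci under 1.5 kb, an alternative chosen after seeing the data, the D17 value was -0.50. No paired analysis was possible because each table holds 1 value per group, although the libraries are numbered 1 to 3 in each group. For the same reason no replicate could be left out.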
